A study of Mus musculus with 24 samples.

Results

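Adipocyte and lipid storage genes were followed in fetal mouse skin with and without desmoglein 1, the cadherin that holds the upper layers of the epidermis together. The members are 32 genes chosen by name, out of 54087 genes in the count table, for known roles in fat cells and in the storage and release of triglyceride. All 32 passed the filter on low counts, and 17094 genes were tested in all. The skin came from embryos at E18.5 (late gestation) in 3 genotypes, with 5 samples each: WT (intact Dsg1 genes), HET (1 copy deleted) and KO (both copies deleted). Per the study's methods, the tandem Dsg1a, Dsg1b and Dsg1c genes were deleted by CRISPR/Cas9 in C57BL/6 mice, and RNA was taken from frozen dorsal skin. Every cell of the animal carries the deletion, and the methods trace the allele to 1 founder. The methods do not say how deep beneath the dermis the skin was taken, and neither the labels nor the methods say whether embryos were pooled.

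White adipocytes hold a single large lipid droplet and secrete hormones such as adiponectin and leptin, while brown adipocytes burn lipid through the uncoupling protein Ucp1. In mice the white adipocytes of the dermis fill with lipid around birth, and the brown fat of the back lies beneath the skin between the shoulder blades. The nuclear receptor Pparg, together with the C/EBP factors, turns on most of the genes of both kinds of fat cell.

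Promoter sequences from RefSeq (build GRCm38.p6) were at hand for 21 of the 32 members, in 32 windows of 300 bases each. Shown are the 250 bases before the annotated start of 4 members on which the results turn: Adipoq, to which the other members were compared, Cidec (1 of its 2 windows), whose levels followed Adipoq most closely, Plin1, and the brown fat gene Ucp1. They lie at chr16:23146286-23146535 (plus strand), chr6:113434765-113435014 (minus strand), chr7:79732777-79733026 (minus strand) and chr8:83290098-83290347 (plus strand). Each is printed 5′ to 3′ on the gene's strand, and capitals mark matches to TTGCNNAA, a motif of the C/EBP type, searched on both strands.
Adipoq: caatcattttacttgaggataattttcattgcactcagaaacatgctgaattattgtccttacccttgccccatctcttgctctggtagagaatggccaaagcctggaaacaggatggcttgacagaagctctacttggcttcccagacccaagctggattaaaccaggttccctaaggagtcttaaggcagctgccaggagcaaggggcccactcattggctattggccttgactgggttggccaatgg
Cidec: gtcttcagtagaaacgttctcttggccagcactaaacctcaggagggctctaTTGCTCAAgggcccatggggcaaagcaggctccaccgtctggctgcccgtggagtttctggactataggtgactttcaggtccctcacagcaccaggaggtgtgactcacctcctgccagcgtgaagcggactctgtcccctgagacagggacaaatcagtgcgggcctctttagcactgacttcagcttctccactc
Plin1: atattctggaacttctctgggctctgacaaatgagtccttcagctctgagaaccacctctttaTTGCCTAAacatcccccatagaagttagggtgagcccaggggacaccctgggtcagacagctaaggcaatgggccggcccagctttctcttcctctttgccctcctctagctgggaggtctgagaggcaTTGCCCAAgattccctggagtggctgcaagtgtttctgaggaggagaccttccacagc
Ucp1: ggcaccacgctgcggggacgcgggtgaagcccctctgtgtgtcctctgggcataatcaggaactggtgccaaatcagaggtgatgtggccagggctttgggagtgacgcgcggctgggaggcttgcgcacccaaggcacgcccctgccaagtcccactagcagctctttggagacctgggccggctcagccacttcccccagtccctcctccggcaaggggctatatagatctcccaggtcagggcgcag
The Cidec window held 1 match, which began 198 bases before the start, and the Plin1 window held 2, which began 187 and 58 bases before the start. The motif was in at least 1 window of 5 of the 21 members (Cidec, Lep, Mest, Plin1 and Pparg), and in 5 of the 32 member windows (15.62%), beside 10.8% of all 32851 windows in the table. The direct repeat that Pparg binds with its partner, searched as 2 copies of AGGNCA with 1 base between them on both strands, was in none of the member windows and in 0.3805% of all windows. No match of one motif therefore overlapped a match of the other in the member windows, and a match describes these letters only.

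The 24 libraries carried 15 title numbers, and libraries of 1 number were summed to 1 sample, called a column in the plots. The labels do not say what a number stands for, so p-values measure the spread between these samples. Libraries held 8976020 to 20964721 counts, and summed samples 15279289 to 33681853 counts. Summed Dsg1a, Dsg1b and Dsg1c counts were at 0.095 to 1.34 CPM (counts scaled to library size) in KO libraries, 361 to 495 CPM in HET libraries and 720.5 to 942 CPM in WT libraries, in the order of the labelled gene copies. WT replicate 2 stood apart: its 2 libraries differed by a chi-square of 15.6 per degree of freedom, against 1.59 to 1.86 for the other 8 numbers sequenced in both series, and Y-linked genes were at 338 CPM in one and 0.157 CPM in the other. The 2 libraries are therefore not from 1 animal, and Adipoq was at 80.7 and 69.9 CPM in them. Without WT replicate 2 no member was called in any comparison, as with it. Of all genes, those fits called 0.117% in KO against WT, 0% in HET against WT and 0.0881% in KO against HET. In KO against WT 7 members were then higher at an unadjusted p below 0.05, beside 7.58% of all genes, with a member median log2 fold change of 1.37.

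In WT skin the members spanned a wide range of levels. Per kilobase of transcript, Fabp4, a carrier of fatty acids in the cytosol, was highest with 498 ± 205 RPKM (CPM divided by transcript length in kilobases; SD, n = 5), followed by Car3 with 215 ± 168 RPKM, Dgat2 with 169 ± 28.5 RPKM and Mest with 151 ± 22.1 RPKM. Adipoq ranked 9 in this order with 48.1 ± 34.5 RPKM. Leptin (Lep) and the receptor Acvr1c were lowest with 0.402 ± 0.329 and 0.375 ± 0.29 RPKM. Of the 31 pairs of neighbours in this order, 29 overlapped in their ranges of mean ± 1 SD, and the exceptions were the steps from Mest to Acsl1 and from Plin4 to Aqp7.

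The members varied more between samples of 1 genotype than most genes did. The SD within genotypes of log2(CPM + 0.5) had a median of 1.10 over the members and of 0.21 over all 17094 genes tested. Ucp1 led with 3.68, ahead of Pck1 with 2.64, Cidea with 2.45 and Gpd1 with 1.93. At the other end, Mest and Dgat2 varied by 0.24 and 0.25, close to the median of all genes. In bulk tissue a change in the number of fat cells and a change in RNA per fat cell cannot be told apart.

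**Figure D1:**
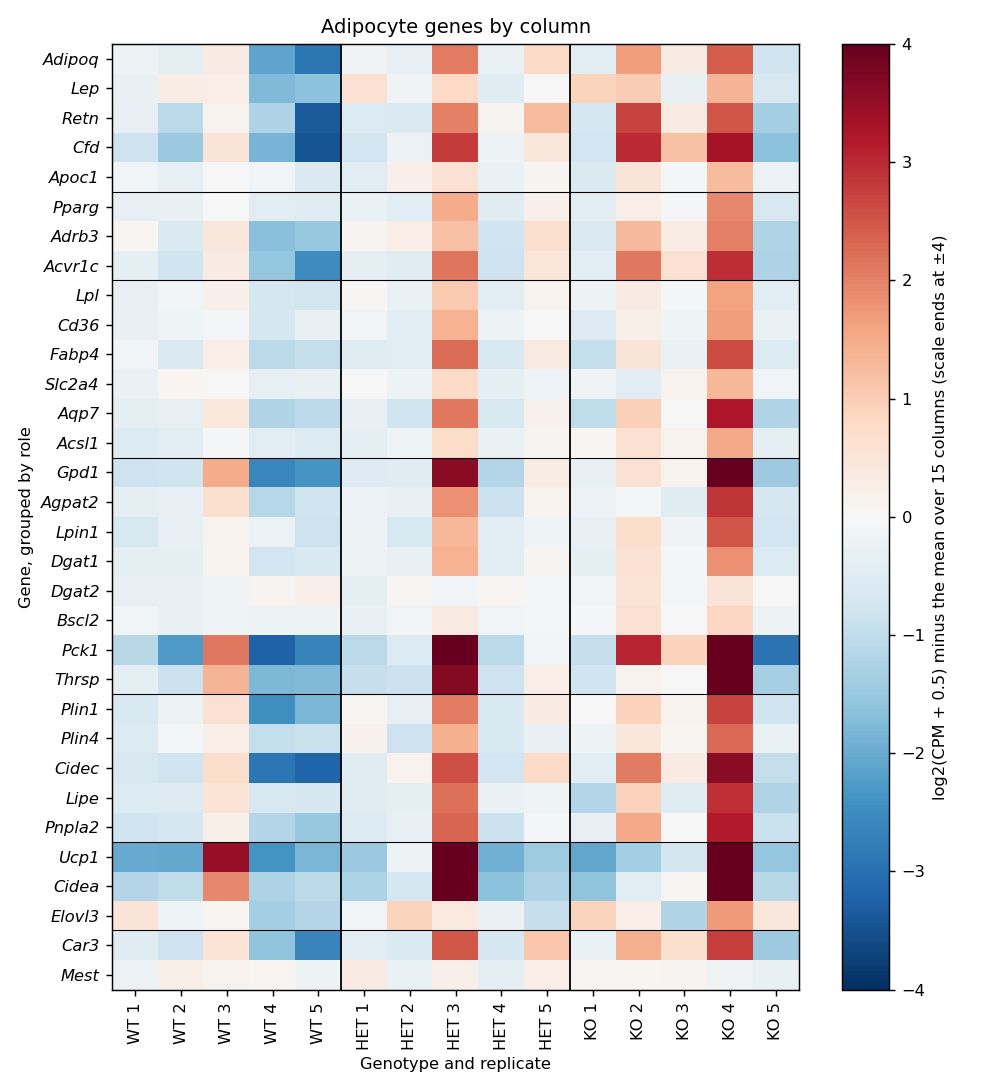
Each row is 1 of the 32 genes, grouped by role from secreted proteins at the top to Car3 and Mest at the bottom, and each column is 1 sample; colour gives log2(CPM + 0.5) minus the gene's mean over the 15 samples. HET 3 and KO 4 stand out in red over most rows, with medians of 1.93 and 2.52 above the gene means, while WT 4 and WT 5 are blue with medians of -1.20 and -1.06.

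A few samples stood out for most members. KO replicate 4 was the highest of the 15 samples for 29 of the 32 members and HET replicate 3 was among the 3 highest for 28. Both lay above all other 13 samples for 24 members, and the same held for 8.25% of all genes tested. KO replicate 2 was among the 3 highest for 24 members, and WT replicate 4 was the lowest sample for 14. The members summed to 21778 CPM in KO replicate 4 and to 14483 CPM in HET replicate 3, against 2255 to 6749 CPM in the other 13 samples.

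Of the secreted proteins, Adipoq encodes adiponectin, a hormone made almost wholly by fat cells. Adipoq was at 82.2, 74.6, 119.7, 21.9 and 12.4 CPM in WT replicates 1 to 5, at 86.6, 76.5, 401, 79.6 and 162 CPM in HET replicates 1 to 5, and at 69.5, 308, 121, 514 and 54.7 CPM in KO replicates 1 to 5. KO replicates 2 and 4 and HET replicate 3 were high, WT replicates 4 and 5 were low, and the 3 groups overlapped. Means were 62.2 ± 44.6, 161 ± 139 and 213 ± 196 CPM in WT, HET and KO (SD, n = 5), and the KO against WT log2 fold change was 1.78 ± 0.79 (SE, adjusted p = 0.243) by edgeR's quasi-likelihood test. Cfd, the complement factor also known as adipsin, had the largest KO against WT difference among the secreted proteins. Cfd was at 20.6, 12.7, 52.8, 9.75 and 2.92 CPM in WT replicates 1 to 5, at 21.5, 31.1, 258, 31.7 and 50.3 CPM in HET replicates 1 to 5, and at 21.5, 292, 83.7, 376 and 11.5 CPM in KO replicates 1 to 5, with means of 19.8 ± 19.5, 78.5 ± 101 and 157 ± 167 CPM (SD, n = 5). The same 3 samples were high, and the groups overlapped, with WT replicate 3 above KO replicates 1 and 5. Its KO against WT log2 difference was 2.98 ± 1.11 (SE, adjusted p = 0.183).

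Resistin, encoded by Retn, is a secreted protein of white adipocytes in mice. Retn was at 9.8, 5.56, 13.6, 4.91 and 0.755 CPM in WT replicates 1 to 5, at 8.3, 8.07, 51.6, 13.4 and 30.6 CPM in HET replicates 1 to 5, and at 7.45, 82.1, 15.9, 72.99 and 4.52 CPM in KO replicates 1 to 5, with means of 6.93 ± 4.93, 22.4 ± 18.7 and 36.6 ± 37.8 CPM (SD, n = 5). KO replicates 2 and 4 were highest, HET replicates 3 and 5 came next, and KO replicates 1 and 5 lay within the WT range. On the log2 scale KO differed from WT by 2.39 ± 0.91 (SE, adjusted p = 0.192). Lep encodes leptin, the satiety hormone. Lep was at 1.41, 2.38, 2.34, 0.182 and 0.252 CPM in WT replicates 1 to 5, at 3.06, 1.64, 3.57, 1.17 and 1.87 CPM in HET replicates 1 to 5, and at 3.85, 4.24, 1.4, 5.5 and 1 CPM in KO replicates 1 to 5. WT replicates 4 and 5 were lowest, and the other WT values lay among those of KO. At means of 1.31 ± 1.07, 2.26 ± 1.01 and 3.2 ± 1.93 CPM in WT, HET and KO, leptin was rare in each genotype. Its log2 fold change was 1.25 ± 0.61 (SE, adjusted p = 0.277). Apoc1, an apolipoprotein of plasma lipoproteins, had means of 34.1 ± 5.02, 42.4 ± 12.5 and 49.99 ± 27.9 CPM in WT, HET and KO and differed by 0.55 ± 0.30 (SE, adjusted p = 0.324) on the log2 scale, KO against WT.

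Among the receptors, Acvr1c encodes ALK7, an activin receptor of fat cells that holds back lipolysis. Acvr1c was at 4.42, 3.1, 7.43, 1.64 and 0.604 CPM in WT replicates 1 to 5, at 4.3, 3.98, 27.4, 3.06 and 8.23 CPM in HET replicates 1 to 5, and at 4.12, 26.9, 9.02, 47.8 and 2.19 CPM in KO replicates 1 to 5, with means of 3.44 ± 2.66, 9.39 ± 10.2 and 18 ± 19.3 CPM (SD, n = 5). Its high samples were those of Adipoq, KO replicates 4 and 2 and HET replicate 3. Its log2 fold change was 2.36 ± 0.93 (SE, adjusted p = 0.199). Pparg had means of 25.1 ± 3.74, 38.7 ± 27.7 and 45.9 ± 41.7 CPM in WT, HET and KO, and differed by 0.87 ± 0.51 (SE, adjusted p = 0.359) on the log2 scale, KO against WT. Adrb3, the beta-3 adrenergic receptor through which noradrenaline starts lipolysis, had means of 1.67 ± 1.33, 3.33 ± 1.76 and 4.58 ± 4.27 CPM and differed by 1.42 ± 0.71 (SE, adjusted p = 0.287) on the log2 scale, KO against WT.

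**Figure D2:**
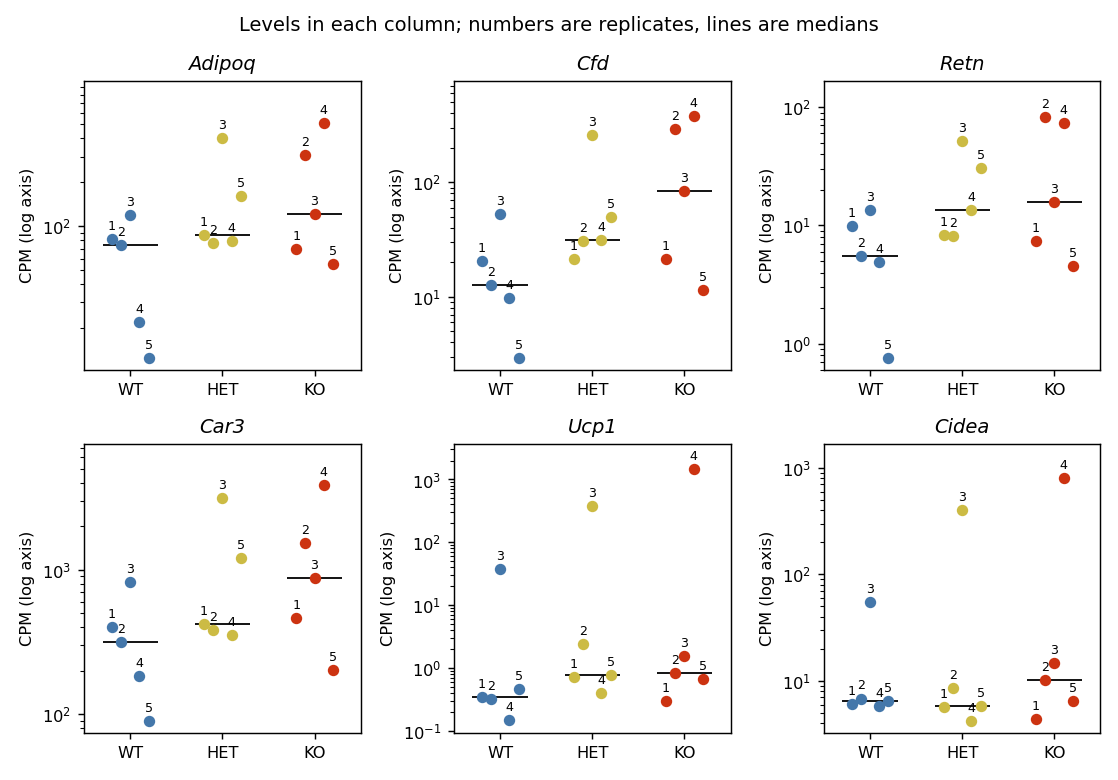
Each point is 1 sample, with its replicate number, on a log axis of CPM for Adipoq, Cfd, Retn, Car3, Ucp1 and Cidea; lines mark the median of 5 samples. Adipoq, Cfd, Retn and Car3 form a continuous range with KO 2, KO 4 and HET 3 at the top, whereas Ucp1 lies at 37.5 to 1461 CPM in WT 3, HET 3 and KO 4 and at 2.42 CPM or below elsewhere.

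The 6 genes of lipid uptake and carriage had a median KO against WT difference of 0.84 on the log2 scale, against 1.78 for the 5 secreted proteins. Fabp4 followed Adipoq over the samples. Fabp4 was at 549.5, 393, 713, 275 and 300.2 CPM in WT replicates 1 to 5, at 423, 438, 2780.2, 388 and 758 CPM in HET replicates 1 to 5, and at 306, 833, 489, 3551 and 403 CPM in KO replicates 1 to 5. KO replicate 4 and HET replicate 3 stood apart, and the other 13 samples lay at 275 to 833 CPM. It had means of 446 ± 184, 957 ± 1029.9 and 1117 ± 1375 CPM in WT, HET and KO, and differed by 1.32 ± 0.76 (SE, adjusted p = 0.347) on the log2 scale, KO against WT. Without KO replicate 4 that value was 0.19. Acsl1, which couples fatty acids to coenzyme A, had the smallest p of the members. Acsl1 was at 271, 293, 375, 292 and 271 CPM in WT replicates 1 to 5, at 306, 352, 650.5, 326 and 422 CPM in HET replicates 1 to 5, and at 414, 596, 429, 1128 and 309.9 CPM in KO replicates 1 to 5, with means of 300.4 ± 42.99, 411 ± 141 and 575 ± 325 CPM (SD, n = 5). KO replicate 5 was the only KO sample within the WT range. Its KO against WT log2 difference was 0.94 ± 0.30 (SE, adjusted p = 0.139), and 0.54 without KO replicate 4.

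The other 4 genes of uptake also had log2 fold changes above 0. Lpl, the lipase that frees fatty acids from lipoproteins, and Cd36, which takes them up, had KO against WT log2 fold changes of 0.74 ± 0.39 and 0.73 ± 0.43 (SE). Lpl had means of 301 ± 82.8, 427 ± 198 and 504 ± 352 CPM in WT, HET and KO. Cd36 had means of 229 ± 33.8, 344 ± 222 and 379 ± 289 CPM. Slc2a4 encodes the insulin-responsive glucose transporter of fat and muscle and differed by 0.46 ± 0.31 (SE), with means of 30.8 ± 4.38, 35.6 ± 12.8 and 42.4 ± 25.2 CPM. Aqp7, the channel by which glycerol leaves the fat cell, differed by 1.95 ± 0.96 (SE), with means of 2.65 ± 1.5, 5.66 ± 6.58 and 10.5 ± 15.8 CPM. The adjusted p-values of these 4 lay between 0.282 (Aqp7) and 0.411 (Slc2a4) by edgeR.

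The 8 genes of triglyceride synthesis included widely varying members such as Pck1 and steady ones such as Dgat2. Bscl2 encodes seipin, which shapes new lipid droplets. Bscl2 was at 67.5, 59.96, 65.6, 63.9 and 63.5 CPM in WT replicates 1 to 5, at 60.1, 68.04, 94.3, 67.7 and 70.5 CPM in HET replicates 1 to 5, and at 68.7, 113, 73.4, 129.8 and 63.5 CPM in KO replicates 1 to 5, with means of 64.1 ± 2.8, 72.1 ± 12.99 and 89.7 ± 29.8 CPM (SD, n = 5). KO replicates 2 and 4 and HET replicate 3 were high, and the other 12 samples lay at 59.96 to 73.4 CPM. On the log2 scale KO differed from WT by 0.48 ± 0.18 (SE, adjusted p = 0.167). Dgat1 and Dgat2 catalyse the last step of synthesis, and Dgat2 is also active in the epidermis. Dgat2 had means of 382 ± 64.5, 383 ± 44.1 and 466 ± 104 CPM in WT, HET and KO and differed by 0.29 ± 0.15 (SE, adjusted p = 0.292) on the log2 scale, KO against WT. In WT replicates 4 and 5, the lowest samples for Adipoq, Dgat2 was at 436 and 465 CPM, the highest of the WT samples. Dgat1 had means of 21.3 ± 5.62, 33.8 ± 21.9 and 41.4 ± 33.7 CPM and differed by 0.95 ± 0.48 (SE, adjusted p = 0.295) on the log2 scale, KO against WT.

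Pck1 and Gpd1, which make glycerol 3-phosphate for the glycerol backbone, reached far higher levels in single samples. Pck1 was at 468 CPM in KO replicate 4 and 153 CPM in HET replicate 3, at 71.9 and 37.3 CPM in KO replicate 2 and WT replicate 3, and at 0.437 to 15.9 CPM in the other 11. Its means were 8.69 ± 16.02, 34.6 ± 66.1 and 112 ± 201 CPM, with an SD above the mean in each genotype, and its log2 fold change was 3.66 ± 1.83 (SE, adjusted p = 0.293). Gpd1 was at 3003 CPM in KO replicate 4, 1726 CPM in HET replicate 3 and 393 CPM in WT replicate 3, and at 22.9 to 218 CPM in the other 12. These 3 samples are the ones with Ucp1. Its means were 121 ± 155, 432 ± 724 and 709 ± 1284 CPM and its log2 fold change was 2.55 ± 1.39 (SE, adjusted p = 0.326).

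Thrsp, a nuclear protein of lipogenic tissues, and Agpat2, the acyltransferase that makes phosphatidic acid, had the same 3 samples on top. Thrsp had means of 32.2 ± 35.1, 115 ± 199.5 and 146 ± 264 CPM in WT, HET and KO and a log2 fold change of 2.17 ± 1.33 (SE). Agpat2 had means of 24.8 ± 13.1, 41.4 ± 37.7 and 62.6 ± 87.4 CPM and a log2 fold change of 1.33 ± 0.77 (SE). Without KO replicate 4 the direction turned for both, to -0.21 and -0.07. Lpin1, the phosphatase that follows Agpat2, had means of 19.3 ± 5.13, 27.9 ± 19.7 and 48.1 ± 54.3 CPM and differed by 1.31 ± 0.61 (SE, adjusted p = 0.265) on the log2 scale, KO against WT.

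Plin1 coats the lipid droplet of the mature fat cell. Plin1 was at 45.4, 59.4, 106, 12.3 and 19.1 CPM in WT replicates 1 to 5, at 72.4, 55.1, 287, 44.8 and 87.3 CPM in HET replicates 1 to 5, and at 68.2, 131, 76.9, 450.0 and 39.7 CPM in KO replicates 1 to 5. KO replicate 4 and HET replicate 3 were highest, WT replicates 4 and 5 lowest, and the groups overlapped. The means were 48.4 ± 37.4, 109 ± 101 and 153 ± 169 CPM in WT, HET and KO, and the log2 fold change was 1.66 ± 0.79 (SE, adjusted p = 0.271). Pnpla2 encodes the lipase that takes the first fatty acid from triglyceride. Pnpla2 was at 43.6, 47.6, 89.4, 33.4 and 26.3 CPM in WT replicates 1 to 5, at 52.1, 60.3, 388, 41.96 and 72.1 CPM in HET replicates 1 to 5, and at 60.9, 219, 77.2, 695 and 40.7 CPM in KO replicates 1 to 5, with means of 48.1 ± 24.6, 123 ± 149 and 219 ± 276 CPM (SD, n = 5). The order of the high samples was KO replicate 4, HET replicate 3 and KO replicate 2. Its log2 fold change was 2.18 ± 0.87 (SE, adjusted p = 0.205), and 1.05 without KO replicate 4.

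The other droplet genes differed in the same direction. Cidec, which fuses droplets into 1 large droplet, had means of 14.6 ± 15.04, 49.5 ± 56.2 and 92.8 ± 122 CPM in WT, HET and KO and differed by 2.65 ± 1.08 (SE, adjusted p = 0.214) on the log2 scale, KO against WT. Lipe, the hormone-sensitive lipase, had means of 45.4 ± 19.9, 86.6 ± 95.1 and 122 ± 169 CPM and differed by 1.43 ± 0.84 (SE, adjusted p = 0.36) on the log2 scale, KO against WT, which was 0.09 without KO replicate 4. In KO replicates 1 and 5 Lipe was at 24.6 and 23.9 CPM, the lowest of the 15 samples. Plin4, another coat protein, had means of 18.3 ± 7.05, 27.8 ± 20.9 and 42.98 ± 41.5 CPM and differed by 1.22 ± 0.57 (SE, adjusted p = 0.266) on the log2 scale, KO against WT.

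Ucp1, the uncoupling protein that defines brown fat, was present at a high level in 1 sample of each genotype. Ucp1 was at 0.34, 0.319, 37.5, 0.146 and 0.453 CPM in WT replicates 1 to 5, at 0.716, 2.42, 377, 0.39 and 0.766 CPM in HET replicates 1 to 5, and at 0.301, 0.811, 1.53, 1461 and 0.667 CPM in KO replicates 1 to 5, with means of 7.75 ± 16.6, 76.2 ± 168 and 293 ± 653 CPM (SD, n = 5). WT replicate 3, HET replicate 3 and KO replicate 4 stood apart from the other 12 samples, which held 4 to 65 counts each. Libraries of 1 number gave like values, with 36.7 and 38.7 CPM in WT replicate 3 and 374 and 381 CPM in HET replicate 3, while KO replicate 4 was sequenced in 1 library. The log2 fold change KO against WT was 5.21 ± 2.88 (SE, adjusted p = 0.333). It was -3.31 without KO replicate 4, and 1.38 without WT replicate 3, HET replicate 3 and KO replicate 4. Its sign thus depended on which of these 3 samples were in the fit.

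Cidea, a droplet protein of brown fat that is also made by sebaceous glands, marked the same samples. Cidea was at 6.02, 6.84, 55.5, 5.82 and 6.5 CPM in WT replicates 1 to 5, at 5.66, 8.59, 400.2, 4.23 and 5.84 CPM in HET replicates 1 to 5, and at 4.36, 10.3, 14.7, 809.9 and 6.43 CPM in KO replicates 1 to 5, with means of 16.1 ± 21.99, 84.9 ± 176 and 169 ± 358 CPM (SD, n = 5). The other 12 samples lay at 4.23 to 14.7 CPM. Its KO against WT log2 difference was 3.38 ± 1.88 (SE, adjusted p = 0.336), and -0.87 without KO replicate 4. Elovl3, a fatty acid elongase of cold-exposed brown fat and of skin glands, did not mark them. It was at 1.87, 2.47 and 6.78 CPM in WT replicate 3, HET replicate 3 and KO replicate 4, and at 0.364 to 3.67 CPM in the other 12. Its means were 1.38 ± 0.963, 1.94 ± 1.13 and 3.14 ± 2.34 CPM and its log2 fold change was 1.17 ± 0.62 (SE, adjusted p = 0.307).

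Of the 2 members outside these roles, Car3 encodes carbonic anhydrase III, an abundant protein of fat and of slow muscle. Car3 was at 399.7, 314, 817, 184 and 89.4 CPM in WT replicates 1 to 5, at 423, 380.3, 3154, 354 and 1203 CPM in HET replicates 1 to 5, and at 466, 1541, 873, 3863 and 203 CPM in KO replicates 1 to 5, with means of 361 ± 282, 1103 ± 1200.1 and 1389 ± 1472 CPM (SD, n = 5). It followed Adipoq, with KO replicate 4, HET replicate 3 and KO replicate 2 on top and WT replicate 5 lowest. On the log2 scale KO differed from WT by 1.94 ± 0.89 (SE, adjusted p = 0.255). Mest, an imprinted gene linked to the growth of fat cells, was the only member with a negative value. It had means of 385 ± 56.6, 398 ± 83.8 and 373 ± 42.4 CPM in WT, HET and KO, and differed by -0.05 ± 0.14 (SE, adjusted p = 0.868) on the log2 scale, KO against WT. It was at 346 CPM in KO replicate 4, 436 CPM in HET replicate 3 and 399 CPM in KO replicate 2, within the 297 to 480.2 CPM of the other 12 samples.

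Across the 32 members, no KO against WT difference passed the study's thresholds, an adjusted p of at most 0.1 and a log2 fold change of at least 1 in either direction. At the adjusted p alone, with no limit on the fold, the count was also 0. Over all genes tested these rules called 0.322% and 1.15%. The smallest adjusted p of the members was 0.139 (Acsl1). At an unadjusted p below 0.05 edgeR found 9 members higher in KO and 0 lower, that is 28.1% of the members beside 10.1% of all genes. They were Adipoq, Retn, Cfd, Acvr1c, Acsl1, Bscl2, Cidec, Pnpla2 and Car3. DESeq2 found 17 members higher at that level and limma-voom 4, beside 11.9% and 9.43% of all genes. For 31 of the 32 the edgeR log2 fold change was above 0, against 48.6% of all genes. Its median was 1.38, against -0.01 over all genes. For 0 members did all 5 KO samples lie above all 5 WT samples, which held for 1.61% of all genes. The members varied together over the samples, so these counts are not counts of independent genes. KO replicate 4 was the highest sample for 29 of them.

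The size of these differences depended on single samples. Without KO replicate 4 the median over the members was 0.33 in place of 1.38, with 27 of 32 above 0 and 1 member higher at an unadjusted p below 0.05, beside 7.34% of all genes. Without WT replicate 3, HET replicate 3 and KO replicate 4, a set chosen after seeing the Ucp1 values, the median was 0.68, all 32 were above 0, 14 were higher at an unadjusted p below 0.05, beside 5.76% of all genes, and 0 members passed the adjusted p of 0.1, as 6 genes in all did. Without KO replicate 5, 4 members (12.5%) passed the adjusted p of 0.1 (Retn, Cfd, Acsl1 and Bscl2), near the 10.9% of all genes that did in that fit. DESeq2 gave 7 of the 27 members for which it returned an adjusted p (Retn, Cfd, Acvr1c, Acsl1, Bscl2, Cidec and Pnpla2, with none returned for Gpd1, Agpat2, Thrsp, Ucp1 and Cidea), where it called 8.71% of all genes. Limma-voom gave 0 members, where it called 2.89% of all genes, and a member median of 0.85.

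**Figure D3:**
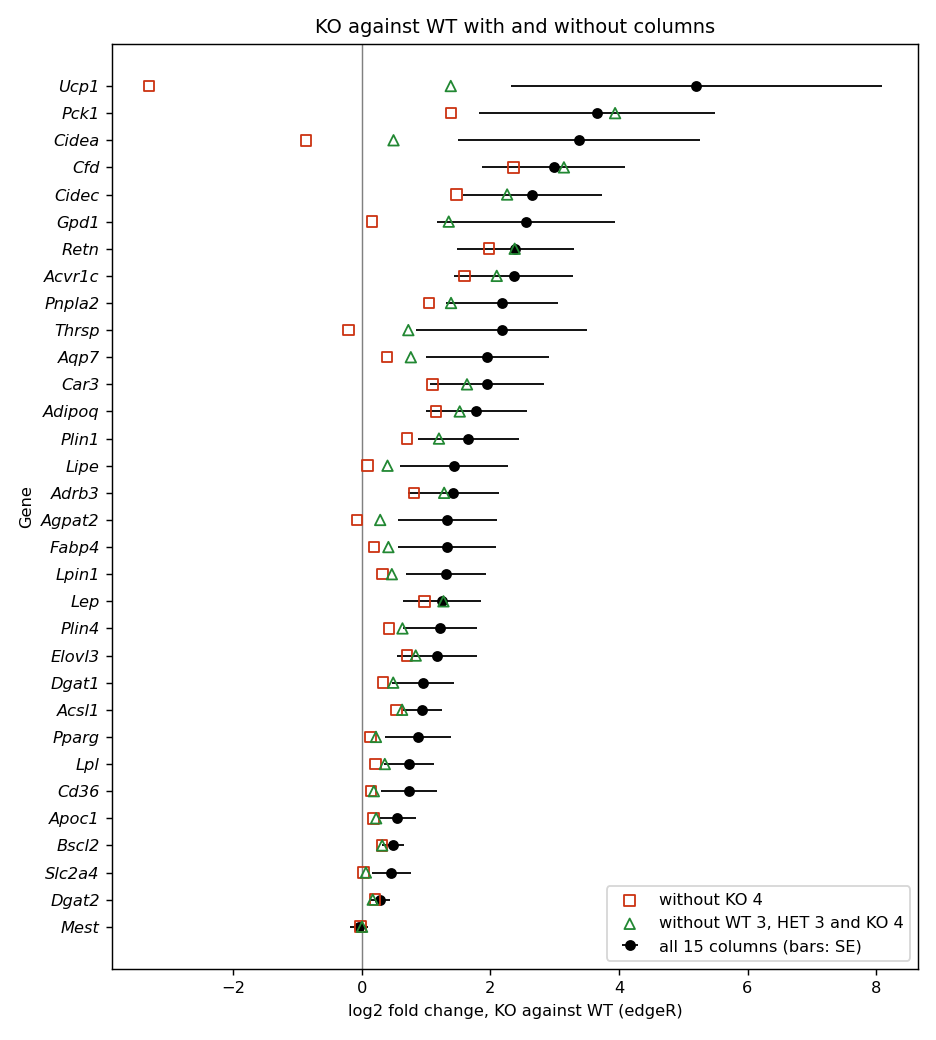
Points give the KO against WT log2 fold change of each of the 32 genes with its SE over all 15 samples, squares the value without KO 4, and triangles the value without WT 3, HET 3 and KO 4. For Ucp1, at 5.21 with all samples, the square lies at -3.31 and the triangle at 1.38, while Cfd has 2.98, 2.36 and 3.14.

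In HET against WT, edgeR called no member at an adjusted p of 0.1, with or without the limit on the fold, and no other gene, so that the share of all genes called was 0% by both rules. At an unadjusted p below 0.05 it found 0 members, beside 0.825% of all genes higher in HET. DESeq2 found 2 members, beside 0.901% of all genes, and limma-voom 0, beside 0.79%. For no member were all 5 HET samples above all 5 WT samples, which held for 0.14% of all genes. Log2 fold changes were 1.37 ± 0.78 (SE) for Adipoq, 1.10 ± 0.76 for Fabp4, 1.17 ± 0.78 for Plin1, 0.76 ± 0.61 for Lep, 1.68 ± 0.90 for Retn and 3.27 ± 2.65 for Ucp1. The adjusted p was 1 for each of these 6. The median over the 32 members was 0.96, and 0.13 without HET replicate 3. This comparison shares its WT samples with KO against WT.

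In KO against HET, 0 members passed either rule, which called 0.181% and 0.333% of all genes. EdgeR, DESeq2 and limma-voom each found 0 members at an unadjusted p below 0.05, beside 8.17% of all genes higher in KO by edgeR. No member had its KO samples all above its HET samples, as 0.954% of all genes did. Log2 fold changes were 0.40 ± 0.76 (SE) for Adipoq, 0.22 ± 0.75 for Fabp4, 0.48 ± 0.77 for Plin1, 0.48 ± 0.59 for Lep, 0.71 ± 0.86 for Retn and 1.94 ± 2.48 for Ucp1, with adjusted p-values between 0.72 (Retn) and 0.904 (Fabp4). The median over the members was 0.48, and it turned to -0.28 without KO replicate 4 and to 1.22 without HET replicate 3.

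Brown fat markers were high in KO replicate 4 and HET replicate 3, but not in KO replicate 2, which was also rich in Adipoq. A list of 16 brown adipocyte markers summed to 3251 CPM in KO replicate 4, 1305 CPM in HET replicate 3 and 287 CPM in WT replicate 3, and to 99.4 to 163 CPM in the other 12 samples. In KO replicate 2, where Adipoq was at 308 CPM, the sum was 132 CPM. Without the members Ucp1, Cidea and Elovl3 the other 13 summed to 973 CPM, 526 CPM and 192 CPM in those 3 samples and to 93.1 to 146 CPM in the other 12. Of the 16, 14 were highest in HET replicate 3 and KO replicate 4, beside 8.25% of all genes tested. For 8 (Ucp1, Cidea, Ppargc1a, Cox7a1, Cox8b, Cpt1b, Otop1 and Ppara) WT replicate 3 also lay above the other 12, beside 1.95% of all genes tested. The 3 samples were picked by a Ucp1 level above 10 CPM, so the place of Ucp1 among the 8 was fixed by that choice. Cox7a1, a muscle and brown fat subunit of cytochrome oxidase, was at 22.4, 101 and 216 CPM in these 3 samples and at 3.42 to 9.33 CPM in the rest. Kcnk3, a potassium channel of brown adipocytes, was at 10.7, 64.6 and 104 CPM there, and at 16.2 CPM in KO replicate 2.

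Other brown markers differed less or not at all. Dio2, the deiodinase that activates thyroid hormone, was at 17.6 CPM in KO replicate 4 and 14.6 CPM in HET replicate 3, against 6.26 to 11.3 CPM elsewhere, and Prdm16, a factor of brown fat identity, was at 15.1 and 10.7 CPM against 4.62 to 8.37 CPM. Elovl3 and Zic1 were the 2 of the 16 that did not follow. Zic1, a factor of the dorsal body wall and of brown fat, was lowest in KO replicate 2 (3.02 CPM) and KO replicate 4 (12.5 CPM), with 17.5 to 39.9 CPM in the other 13. By edgeR, KO against WT, 14 of the 15 brown markers tested had a log2 fold change above 0, with a median of 1.32 (0.41 without the 3 samples). At the adjusted p alone edgeR, DESeq2 and limma-voom called 0 of them, beside 1.15%, 8.71% and 2.89% of all genes. At an unadjusted p below 0.05 they found 2, 4 and 1 in either direction, with both of edgeR's higher. Beside these, 10.1%, 11.9% and 9.43% of all genes were higher in KO. The median over all genes was -0.01.

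The 10 white markers gave no like pattern. Retn and Lep are also members, with levels given above. Pearson's r and Spearman's rho with Adipoq over all samples were 0.95 and 0.97 for Retn, and 0.85 and 0.67 for Lep. Without Retn and Lep the other 8 summed to 83.4 to 121 CPM, with 86.97 CPM in KO replicate 4 and 104 CPM in KO replicate 2. Agt, the precursor of angiotensin, was highest in KO replicate 2 with 67.6 CPM. Hoxc9 and Hoxc10, which mark the posterior trunk as well as white fat, were at 6.45 to 9.61 and 5.19 to 10.3 CPM in WT, 4.16 to 9.5 and 0.883 to 6.64 CPM in HET, and 1.9 to 7.76 and 0.977 to 7.9 CPM in KO. For Hoxc10, 4 of 5 HET and 4 of 5 KO samples lay below every WT sample, and for Hoxc9 3 of 5 HET and 4 of 5 KO samples did. Nnat and Wt1 were highest in KO replicate 4 with 13.7 and 5.91 CPM, Slc7a10 lay at 5.87 to 12.7 CPM, Hoxc8 was lowest in KO replicate 4 with 13.3 CPM, and Tcf21 was below 1 CPM in each sample. Of the 9 tested, 5 had a log2 fold change above 0, with a median of 0.27. At the adjusted p alone edgeR and limma-voom called 0, with 2 and 3 at an unadjusted p below 0.05, and DESeq2 called 2 (Retn higher and Hoxc9 lower). Over all genes the adjusted p alone called 1.15% by edgeR, 2.89% by limma-voom and 8.71% by DESeq2. The counts at an unadjusted p below 0.05 hold genes of either direction, 1 higher and 1 lower by edgeR. Of the 17094 genes tested, edgeR found 1727 (10.1%) higher and 1569 lower at that level. For limma-voom 9.43% of all genes were higher, which leaves out those lower in KO.

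**Figure D4:**
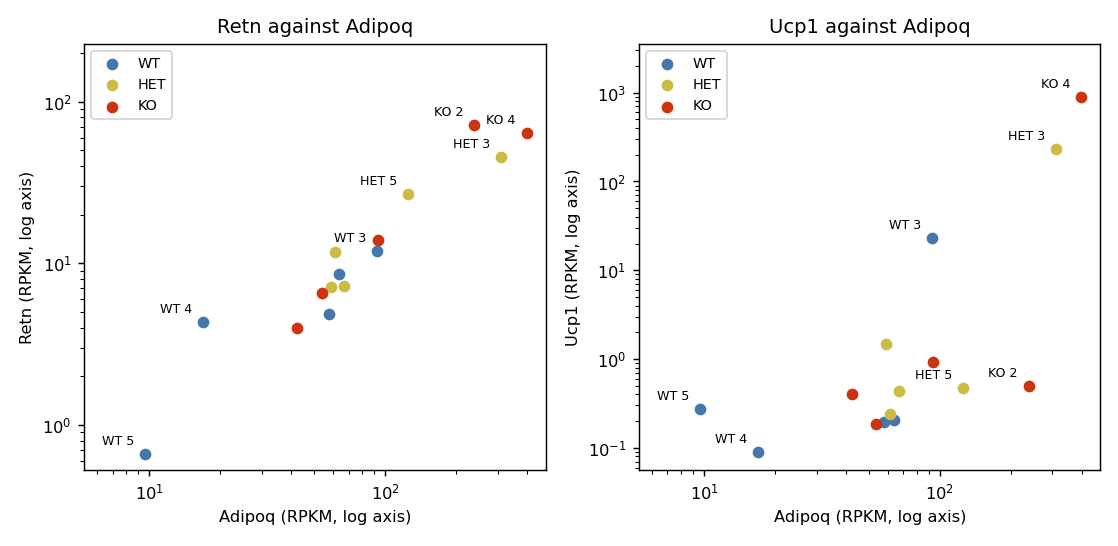
Each point is 1 sample, with Adipoq in RPKM on the horizontal log axis and Retn (left) or Ucp1 (right) in RPKM on the vertical log axis. Retn rises with Adipoq over the whole range, while Ucp1 is high in WT 3, HET 3 and KO 4 only and lies at 0.496 RPKM in KO 2, the third highest sample for Adipoq.

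Set against Adipoq per length, Ucp1 was 2.24 times as high in KO replicate 4, 0.742 times in HET replicate 3 and 0.247 times in WT replicate 3. In the other 12 samples the ratio was between 0.00208 and 0.0289. KO replicate 2 was at the bottom of that range while its Adipoq level was the third highest, and HET replicate 5, next in order for Adipoq with 162 CPM, had a ratio of 0.00374.

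Over the 15 samples most members varied together with Adipoq. Pearson's r of log2(CPM + 0.5) with Adipoq had a median of 0.85 over the other 31 members, against -0.01 over all 17093 other genes tested. By a permutation test (100000 resamples, two-sided, adjusted over the 17093 relations), 25 of the 31 had an adjusted p of 0.05 or below with a positive r, as did 2.32% of all genes. Samples of 3 genotypes and shared sources of variation enter each r, so these values describe how the genes vary together.

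The closest members were Cidec (r = 0.98, rho = 0.93), Acvr1c (r = 0.97, rho = 0.96), Car3 (r = 0.97, rho = 0.94), Cfd (r = 0.96, rho = 0.94) and Retn (r = 0.95, rho = 0.97). Each had a permutation p of 1e-05 for r and for rho, the smallest these permutations can give, and adjusted p-values of 0.0027 and 0.0041. Without KO replicate 4 and WT replicate 5, the 2 samples farthest from the median of Adipoq, r was 0.98 for Cidec, 0.96 for Acvr1c, 0.95 for Car3, 0.92 for Cfd and 0.91 for Retn. Of the 20 genes of the whole table with the highest r, 7 were members, namely these 5 with Plin1 and Adrb3. Dgat2 (r = 0.22, rho = -0.03, permutation p = 0.43 and 0.93, adjusted p = 0.76 and 0.99) and Mest (r = 0.27, rho = 0.34, permutation p = 0.33 and 0.21, adjusted p = 0.69 and 0.72) had the lowest r, which was 0.19 and 0.31 without those 2 samples. Slc2a4 (r = 0.64, rho = 0.43, permutation p = 0.011 and 0.11, adjusted p = 0.14 and 0.6) and Elovl3 (r = 0.55, rho = 0.24, permutation p = 0.032 and 0.38, adjusted p = 0.23 and 0.83) did not pass the adjusted threshold, and their r was 0.48 and 0.22 without those 2 samples. No pooled r is given for Ucp1 and Cidea, since 3 samples form a cluster of their own. Within the other 12 samples the values were r = 0.40, rho = 0.59, permutation p = 0.19 and 0.045, adjusted p = 1 and 1 for Ucp1 and r = 0.34, rho = 0.22, permutation p = 0.26 and 0.48, adjusted p = 1 and 1 for Cidea. In those 12 samples 9 of the 31 members passed the adjusted p of 0.05 for r, as did 0.164% of all genes, and the median r was 0.81, against 0.01 over all genes.

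Other genes of the pathway behaved as follows in KO against WT. Of 19 other adipocyte genes, 18 had a log2 fold change above 0, with a median of 0.79 (0.36 without the 3 samples with Ucp1). At the adjusted p alone edgeR called 0, with 6 at an unadjusted p below 0.05, and DESeq2 and limma-voom called 1 each. Over all genes the adjusted p alone called 1.15% by edgeR, 8.71% by DESeq2 and 2.89% by limma-voom. By edgeR, 10.1% of all genes were higher in KO at an unadjusted p below 0.05. Lgals12, a galectin of lipid droplets, and Fam13a had log2 fold changes of 1.12 ± 0.44 (SE, adjusted p = 0.192) and 0.79 ± 0.34 (SE, adjusted p = 0.23). Ces1d, a carboxylesterase of fat and liver, was at 124 and 72 CPM in KO replicate 4 and HET replicate 3 and at 6.53 CPM or below in the rest.

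Of 11 tested genes of lipid droplets and lipolysis, edgeR called 1 without the limit on the fold, beside 1.15% of all genes. Hilpda, a hypoxia-induced inhibitor of Pnpla2, fell by 0.51 ± 0.12 on the log2 scale (SE, adjusted p = 0.0891 by edgeR), with 8.96 to 12.2 CPM in KO and 11.9 to 16.4 CPM in WT. The call was lost in 11 of the 15 fits without 1 sample, with an adjusted p of 0.0359 (without KO replicate 5) to 0.204 (without KO replicate 4) and log2 fold changes of -0.59 to -0.44. Abhd5, the co-activator of Pnpla2, had 0.36 ± 0.11 (SE, adjusted p = 0.121), with all 5 KO samples (108 to 161 CPM) above all 5 WT samples (97.03 to 105 CPM), and Fitm2, which partitions lipid into droplets, had 0.49 ± 0.20 (SE, adjusted p = 0.199). The median of the 11 was 0.31. Of 11 genes of fatty acid synthesis, all had a log2 fold change above 0, with a median of 0.44. At the adjusted p alone edgeR called 0 of them, with 5 at an unadjusted p below 0.05, DESeq2 called 3 (Scd2, Elovl6 and Acaca) and limma-voom 1 (Scd2). Over all genes DESeq2 called 8.71% and limma-voom 2.89%, and 10.1% were higher in KO at an unadjusted p below 0.05 by edgeR. Scd2, a desaturase, had 0.36 ± 0.10 (SE, adjusted p = 0.109), Elovl6, an elongase, had 0.41 ± 0.12 (SE, adjusted p = 0.11), and Acaca, which makes malonyl-CoA, had 0.60 ± 0.19 (SE, adjusted p = 0.125).

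Precursor genes had a median close to that of all genes. The 16 genes of adipocyte precursors summed to 1887 to 2633 CPM in KO and 2161 to 3145 CPM in WT, had a median log2 fold change of -0.03, and edgeR, DESeq2 and limma-voom called 0 of them and found 0 at an unadjusted p below 0.05. Over all genes the 3 tools called 1.15%, 8.71% and 2.89% at the adjusted p alone. Dlk1, an inhibitor of adipocyte differentiation, made up much of the sum and was lowest in KO replicate 4 with 902 CPM, against 1176 to 1903 CPM elsewhere. Without Dlk1 the other 15 summed to 984 CPM in KO replicate 4, within the 917 to 1242 CPM of the other 14 samples. The smallest p-values were those of Cebpb, Gata2 and Klf5, with log2 fold changes of 0.24, -0.26 and 0.18 and adjusted p-values of 0.292, 0.402 and 0.494 by edgeR.

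Markers of other tissues varied between samples as well, and apart from a muscle covariate their part in the differences was not tested. The 15 skeletal muscle genes summed to 10108 CPM in KO replicate 2, the lowest value, 13507 CPM in KO replicate 4, 15988 CPM in HET replicate 3 and 19389 CPM in WT replicate 3, and to 13279 to 22979.5 CPM over all WT samples. With a muscle covariate in the model 0 members were called KO against WT, beside 0.807% of all genes. At the adjusted p alone the count was also 0, beside 6.72% of all genes. At an unadjusted p below 0.05, 6 members were higher, beside 11% of all genes, and the member median was 1.42. Sebocyte genes without the members Cidea and Elovl3 summed to 639 CPM in KO replicate 4 and to 243 to 530.1 CPM in the other 14. Endothelial genes summed to 694 CPM in KO replicate 4 and 310.2 to 563 CPM in the rest, and macrophage genes to 288 to 526 CPM. Keratinocyte genes summed to 58394 to 106902 CPM, with KO replicate 2 highest, and 1 of the 8 was called without the limit on the fold, the cornified envelope gene Ivl, which rose by 0.76 ± 0.13 (SE, adjusted p = 0.0231). Erythroid genes were highest in KO replicate 3 (9045 CPM) and hepatocyte genes in HET replicate 1 (212 CPM). The median log2 fold changes of these lists, KO against WT, were -0.09 (muscle), 0.42 (sebocyte, 8 genes without the 2 members), 0.07 (endothelial), -0.09 (macrophage), 0.19 (keratinocyte), 0.55 (erythroid) and -1.35 (hepatocyte). At the adjusted p alone edgeR called 0 genes of the 6 lists other than the keratinocyte list, DESeq2 called 1 and limma-voom 0. At an unadjusted p below 0.05 edgeR found 2 genes of these 6 lists, 1 lower (muscle) and 1 higher (sebocyte). Of the 17094 genes tested, 1569 were lower and 1727 higher at that level. Over all genes the adjusted p alone called 1.15% by edgeR, 8.71% by DESeq2 and 2.89% by limma-voom. By edgeR, 10.1% of all genes were higher in KO at an unadjusted p below 0.05.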

How the data were processed

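Poly(A) RNA of E18.5 dorsal skin was sequenced in 24 libraries. The authors deposited raw read counts per gene, unnormalised, and the submitters' notes name STAR and HTSeq. Those notes list the human build hg19 for a table of mouse gene symbols, so no gene coordinates are given from it. All count columns were used. The 8 libraries of each genotype were summed by title number to 5 samples per genotype, so that 2 sequencing series of 1 number count once.

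Genes that passed edgeR's expression filter were scaled by TMM factors and fitted with all 3 genotypes in edgeR's quasi-likelihood model (edgeR 4.0.16, R 4.3.3), with Benjamini-Hochberg adjustment over all 17094 genes and the study's thresholds. Levels are TMM-scaled CPM, and RPKM used the length of 1 principal GENCODE transcript per gene. DESeq2 1.42.0 and limma 3.58.1 (limma-voom) were alternatives, with other filters, scalings, covariates and samples. The model code was tested on simulated data. Members and gene lists were chosen with earlier results of these data known. The text names every member, the members shown in each sample as markers of fat cells or for their small p-values, the marker genes of white and brown fat, and up to 3 genes of each lipid list by p. 1 further gene of these lists is not reported here. Some marker genes and single-sample values were picked for mention after they were seen. Counting error aside, precision is limited by 5 samples per genotype.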

Additional observations from a re-analysis of the deposited data

Results flagged for a closer look

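Within genotypes, 17 of 96 sets of 5 samples, 32 members in 3 genotypes, had 1 sample far above the other 4 on the log2(CPM + 0.5) scale, by Dixon's ratio of the gap to the nearest sample over the whole range. At the critical ratio of 0.71, chance alone gives an outlier at either end in about 1 in 20, that is 4.8 sets, and fewer at the high end alone. The members are not independent of each other. All 17 concerned WT replicate 3, HET replicate 3 or KO replicate 4. For Ucp1 the ratio was 0.904 in WT, 0.804 in HET and 0.876 in KO, and for Cidea it was 0.932, 0.853 and 0.777. HET replicate 3 stood apart for Cd36 (0.762), Lpin1 (0.772), Pck1 (0.817), Thrsp (0.741), Lipe (0.882) and Pnpla2 (0.758). KO replicate 4 stood apart for Agpat2 (0.826), Thrsp (0.728) and Plin4 (0.72), and WT replicate 3 for Acsl1 (0.758) and Lipe (0.872). What sets these samples apart was not tested.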

How the results depend on the processing

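With 5 samples per genotype and this spread, the counts of called members depended on the model. No paired analysis was possible because WT, HET and KO samples carry different numbers. In KO against WT, the number of members called (0) was 5 with DESeq2 (1.14% of all genes called), 9 with the 24 libraries taken as separate samples (1.38%) and 0 to 3 when single samples were left out, with 3 without KO replicate 5 (1.39%). At the adjusted p alone it was 7 with DESeq2 (8.71% of all genes), 12 with 24 libraries (23.7%), 2 with the libraries of WT replicate 2 kept apart (6.25% of members, 7.18% of all genes) and 0 to 4 without single samples. The fit of 24 libraries counts each number sequenced in both series as 2 samples. Its p-values therefore do not measure the spread between numbers, and its counts are not evidence of more changed members. The member median of 1.38 was 0.85 with limma-voom on the same samples, and 0.33 in series 1 alone. It was 0.68 without the 3 samples with Ucp1 (an alternative chosen after seeing the data) and 0.33 to 1.72 without single samples. Series 1 held no library of KO replicate 4, without which the median over the summed samples was also 0.33. For HET against WT the median was 0.13 to 1.29 without single samples. For KO against HET it was -0.43 in series 1 alone and -0.28 to 1.22 without single samples, and 24 libraries gave 1 member (Dgat2) at the adjusted p (24.6% of all genes). The count of members correlated with Adipoq (25) was 9 without the 3 samples with Ucp1 (0.164% of all genes). The cause of these changes was not tested. Direction turned in series 1 alone, KO against WT, for Slc2a4 (-0.0495), Gpd1 (-0.0356), Agpat2 (-0.21), Thrsp (-0.35), Ucp1 (-3.77) and Cidea (-1.18), and KO against HET for Adipoq (-0.21), Fabp4 (-1.17), Plin1 (-0.64) and Ucp1 (-7.09). KO against HET, it also turned for Ucp1 with limma-voom (-0.35) and without the 3 samples (-0.46), and for Fabp4 with 24 libraries (-0.23). Mest turned to 0.0037, KO against WT, without the 3 samples. Without single samples the KO against WT range was -0.0729 to 1.70 for Agpat2, -0.21 to 3.11 for Thrsp, -3.31 to 9.88 for Ucp1, -0.87 to 4.74 for Cidea and -0.10 to 0.0126 for Mest. The HET against WT range was -2.81 to 7.95 for Ucp1, and KO against HET ranges were -0.22 to 1.08 for Adipoq, -0.91 to 1.16 for Fabp4, -0.47 to 1.24 for Plin1 and -6.57 to 8.02 for Ucp1. Among all gene values and alternatives, 25 turned in direction and 1513 kept both direction and side of the threshold. Of the others, 70 were classed as stronger and 16 as weaker.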
